A study of Danio rerio with 12 samples.

Results

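Regions of the zebrafish genome at which nearly every p63 and Sox3 library had a peak are described here. All peaks of 12 libraries were merged where they shared at least 1 bp, and the members were chosen by the number of lists with a peak in the merged region, 10 or more of 12. Of 154315 merged regions 1949 (1.26%) were members. The number of lists with a peak is thus what chose them, and neither it nor the rank of a peak, which makes a peak more likely to be listed, is a finding about them. The positions of the summits were not used in the choice.

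p63, encoded by tp63, is a transcription factor of the p53 family that directs the epidermal fate of the ectoderm, and Sox3 is a SoxB1 transcription factor of neural progenitors. Chromatin immunoprecipitation enriches the DNA that an antibody holds, and ChIPmentation adds the sequencing adaptors to the captured chromatin with the transposase Tn5, which itself favours accessible DNA. A region found with both antibodies can therefore hold both proteins, 1 of them, or chromatin that is recovered whatever the antibody. These peak lists cannot decide between these on their own, and no library without antibody or with a control antibody was analysed here.

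The p63 libraries came from wild-type (WT) whole embryos at 80% of epiboly (gastrulation), 24 hours post fertilization (hpf) and 36 hpf, with 2 biological replicates per stage. Sox3 was profiled at 80% of epiboly and at 24 hpf in WT embryos, with 1 library each, since the study set aside the second replicates for their quality. At 36 hpf Sox3 was profiled in tp63-/- mutants and in WT embryos, with 2 libraries per genotype. The mutants carry a CRISPR/Cas9 deletion that brings a premature stop codon into all tp63 isoforms, and no p63 library came from them. The fish were of the AB and Tübingen strains, each library came from many pooled embryos, and the mutant libraries came from fewer embryos than the WT ones per the methods of the study. In whole embryos a higher peak can come from more cells with binding or from stronger binding per cell, which cannot be told apart, and peaks of both proteins in a region need not come from the same cells.

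Lists held from 6045 to 81578 peaks, 442098 in all, and long lists reach further down in strength. Positions refer to the genome build GRCz10. No genome sequence or gene annotation of this build was used here, so the bases and the genes at the regions were not analysed.

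The question of how general the members were was first put to the lists one by one. A p63 peak was present in 1919 and 1934 of the 1949 members in the lists of 80% of epiboly (98.5% and 99.2%), where 23.0% and 26.8% of all merged regions had one. At 24 hpf it was present in 1734 and 1907 members, against 9.34% and 16.2% of all merged regions. At 36 hpf it was present in 1333 and 1021 members, against 10.9% and 6.13% of all merged regions. A Sox3 peak was present in 1110 members at 80% of epiboly (57.0%), where 3.88% of all merged regions had one, and in 1935 members at 24 hpf, against 42.6% of all merged regions. At 36 hpf it was present in 1942 and 1925 members in tp63-/- mutants, against 52.0% and 38.0% of all merged regions, and in 1900 and 1807 members in WT embryos, against 32.4% and 18.3%. Since the rule asks for 10 lists, these shares are high by construction, and they are lowest in the 4 shortest lists. Per the study, the p63 libraries of 36 hpf and the Sox3 library of 80% of epiboly also had the fewest mapped reads for their antibody. No loss or gain of binding with stage is read from these counts.

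Only 210 members (10.8%) had a peak in all 12 lists. The most frequent pattern was the absence of both p63 lists of 36 hpf, in 579 members (29.7%). The next was the absence of the Sox3 list of 80% of epiboly alone, in 370 members (19.0%), and that list lacked a peak in 839 members in all (43.0%). A mutant Sox3 list was missing in 30 members and a WT Sox3 list of 36 hpf in 184, the WT lists being the shorter ones. All 6 p63 lists were present in 780 members (40.02%) and all 6 Sox3 lists in 1053 (54.0%). A missing peak says that the region did not pass the threshold of that list, not that the protein was absent.

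The number of members rested on the shallow lists. When 1 library was left out and a peak was asked for in 9 of the remaining 11, the number was 3728 without p63 36 hpf replicate 2, 3454 without p63 36 hpf replicate 1, 3144 without Sox3 80% of epiboly and 2969 without p63 24 hpf replicate 1. It was between 1980 and 2269 without each of the other 8 libraries. With the 6045 strongest peaks of each list, which makes all lists as long as the shortest, 153 regions had a peak in 10 or more lists.

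The regions changed gradually across the threshold. The 1182 regions of 10 lists, just inside, had a median merged width of 568 bp and a median mean percentile of 71.3, where the percentile is the rank of −log10 q (the significance of a peak) within its own list, from 0 for the weakest to 100 for the strongest peak. The mean percentile was taken here over the lists with a peak in the region. The 2223 regions of 9 lists, just outside, had 538 bp and 69.3. The 557 regions of 11 lists had 586 bp and 75.6, and the 210 regions of 12 lists had 655 bp and 83.2.

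**Figure D1:**
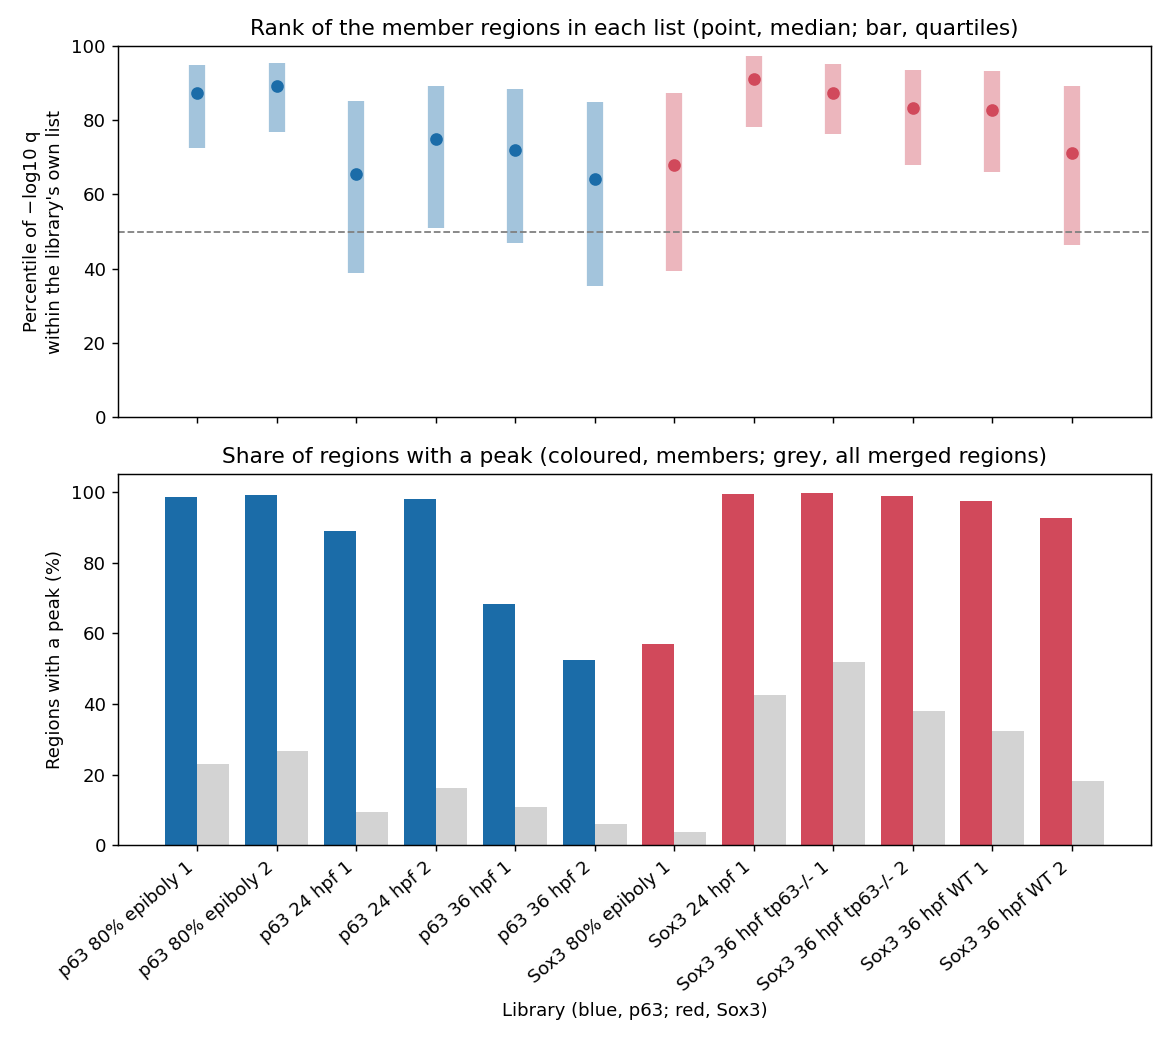
Upper panel: percentile of −log10 q of the member regions within each of the 12 lists (point, median; bar, quartiles; dashed line, 50). Lower panel: percentage of members and of all merged regions with a peak in each list. The medians lie between 64.2 and 91.0, and the lists of p63 at 36 hpf and of Sox3 at 80% of epiboly hold the fewest members.

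Members were strong peaks in some lists and ordinary ones in others. Their median percentile was 87.3 and 89.3 in the p63 lists of 80% of epiboly, 65.6 and 75.04 at 24 hpf, and 72.0 and 64.2 at 36 hpf. For Sox3 it was 67.8 at 80% of epiboly, 91.0 at 24 hpf, 87.3 and 83.2 in tp63-/- mutants at 36 hpf and 82.8 and 71.2 in WT embryos at 36 hpf. The mean of the list medians was 75.6 ± 10.6 for p63 and 80.5 ± 9.13 for Sox3 (SD, n = 6 libraries each), a difference of −4.97 that is smaller than the spread between libraries. The percentile tended to be higher in longer lists, where a region from the middle of a short list can stand high. It did not follow length strictly, with 87.3 in the longest list (tp63-/- replicate 1, 81578 peaks) and 91.0 for Sox3 at 24 hpf (67886 peaks). How much of the difference between lists comes from length was not tested. Among the 6045 strongest peaks of each list were 1119 and 1166 members for p63 at 80% of epiboly, 1005 and 919 at 24 hpf, and 783 and 755 at 36 hpf. For Sox3 these counts were 1110 at 80% of epiboly (its whole list), 963 at 24 hpf, 642 and 661 in tp63-/- mutants and 717 and 725 in WT embryos. These counts follow from the rule in part, most plainly for Sox3 at 80% of epiboly, where they are all members with a peak, and nothing is read from their order.

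A fixed set of regions gives a rank on which list length has no bearing. Over the 3195 regions with a peak in all 6 p63 lists, of which 780 were members, the median percentile of fold enrichment of the members was 49.0 and 49.3 at 80% of epiboly, 41.3 and 37.9 at 24 hpf, and 40.5 and 43.3 at 36 hpf. Fold enrichment sets the tags piled up at the summit, plus 1, over those expected from the surroundings in that library, plus 1. The median fold enrichment of members was 9.28 and 8.85 at 80% of epiboly, against 9.39 and 8.91 for the other regions of the set. At 24 hpf it was 7.98 and 8.46, against 8.86 and 9.65, and at 36 hpf 12.3 and 12.2, against 13.8 and 13.6. By −log10 q the median percentile was 57.2 and 57.9 at 80% of epiboly, 48.1 and 41.1 at 24 hpf, and 48.1 and 47.1 at 36 hpf, so at 80% of epiboly members stood above the middle of the set by significance and near it by fold enrichment. By both measures their place was lower in each library of 24 and 36 hpf than in those of 80% of epiboly. The libraries also differed in local background, the tags expected from the surroundings. Its median at all members with a peak was 3.25 and 4.12 tags at 80% of epiboly, against 1.25 and 0.503 tags at 36 hpf. The added 1 thus weighs differently between stages. No value without it was taken for p63, and no change with stage is read from these places.

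The same was done for genotype, over the 22512 regions with a Sox3 peak in all 4 lists of 36 hpf, of which 1739 were members. The median percentile of fold enrichment of the members was 53.5 and 53.2 in tp63-/- mutants, against 57.3 and 57.9 in WT embryos. Both mutant percentiles lay below both WT percentiles in 646 of the 1739 members (37.1%), where 28.7% of all 22512 regions did so, and above both in 325 members (18.7%), where 23.1% of all regions did so. Sox3 regions of 5 or 6 lists without any p63 peak had 26.3% below and 24.7% above, and the regions of 9 lists, which like the members have p63 peaks, 35.6% below and 21.0% above. The median difference of mutant minus WT percentile was −2.60 in members and −0.60 over all regions. The local background moved with genotype as well, with list medians of 1.66 and 1.76 tags in mutants, against 0.955 and 0.955 tags in WT embryos. Without the added 1 in the ratio the median percentile of the members was 49.2 and 49.5 in mutants, against 51.2 and 50.3 in WT embryos, and the median difference was −0.85, against −1.31 in regions of 9 lists, −0.05 in Sox3 regions without p63 and −0.41 over all regions. Members did not have the lowest value then, and with 2 libraries per genotype no test was made. The part of the background in the difference was not tested.

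Member peaks were wide for their lists, as were those of other regions found in many lists. The median width was 315 and 356 bp in the p63 lists of 80% of epiboly, where all peaks had 167 and 180 bp. In mutant Sox3 lists it was 442 and 441 bp, where all peaks had 231 and 258 bp. The ratio of the median member peak to the median peak of the list ran from 1.15 in Sox3 at 80% of epiboly to 1.98 in p63 80% of epiboly replicate 2, with a mean of 1.57 ± 0.297 (SD, n = 12 libraries). It was 1.16 in p63 36 hpf replicate 2 and 1.30 in p63 24 hpf replicate 1, so the 3 shortest lists had the smallest ratios. Taken per region, the median ratio was 1.63 for members, 1.52 for regions of 9 lists, 1.54 for the 1415 p63 regions of 6 lists without Sox3, 1.44 for the 7875 Sox3 regions of 5 or 6 lists without p63 and 0.851 for all merged regions. The merged regions of the members had a median width of 581 bp (quartiles 460 to 749), against 538 bp for regions of 9 lists, 409 bp for the p63 regions without Sox3, 457 bp for the Sox3 regions without p63, and 220 bp for all merged regions. Merged width grows with the number of merged peaks. In 1327 members (68.1%) no list had more than 1 peak.

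The summits, the points of highest pileup, show whether the antibodies marked the same bases within a member. For each pair of libraries the median distance between their summits was taken over the members with a peak in both lists. It was 59.8 ± 8.26 bp for the 36 pairs of a p63 and a Sox3 library, against 35.8 ± 7.85 bp for the 30 pairs of libraries of the same antibody (mean ± SD over pairs, 12 libraries). The difference of 24.0 bp was the highest among all ways to part the 12 libraries into 6 and 6 (exact two-sided permutation p = 0.00216, the smallest this design can give), and the next highest was 15.03 bp. Pairs of libraries share libraries and are not independent, which the exact test over whole libraries takes into account. The test exchanged replicates as single libraries, so it does not account for their likeness. The labels name no batch, and anything that differed between the p63 and the Sox3 experiments beside the antibody cannot be told apart from it.

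Distance within an antibody was not a matter of replicates alone. Replicates lay 30.7 ± 9.61 bp apart for p63 (n = 3 pairs) and 23.5 ± 4.95 bp for Sox3 (n = 2 pairs), p63 libraries of different stages 40.4 ± 3.43 bp (n = 12 pairs) and Sox3 libraries of different stages 38.8 ± 6.12 bp (n = 9 pairs). Without the pairs of replicates the difference was 22.4 bp (exact permutation p = 0.00216, with replicates still exchanged as single libraries). The pairs kept include those of mutant with WT Sox3 at 36 hpf, which lay 25.5 ± 2.08 bp apart (n = 4 pairs). p63 and Sox3 libraries of the same stage lay 60.5 ± 7.95 bp apart (n = 12 pairs), against 59.5 ± 8.56 bp for those of different stages (n = 24 pairs). The averages were thus close, but most pairs of the same stage were of 36 hpf. Every Sox3 group lay nearest to p63 of 80% of epiboly, which for Sox3 at 80% of epiboly is its own stage (mean 47.5 bp). Every p63 stage lay nearest to Sox3 of 24 hpf, which for p63 at 24 hpf is its own stage (mean 55.5 bp). By stage, the p63 and Sox3 summits were 47 and 48 bp apart at 80% of epiboly and 55 and 56 bp at 24 hpf. At 36 hpf they were 58 to 67 bp apart for Sox3 of tp63-/- mutants and 60 to 73 bp for Sox3 of WT embryos. The smallest p63–Sox3 distances, 40 and 42 bp, joined p63 at 80% of epiboly and Sox3 at 24 hpf. Sox3 at 80% of epiboly lay 39 to 47 bp from the other Sox3 libraries, against 47 and 48 bp from p63 of its stage.

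**Figure D2:**
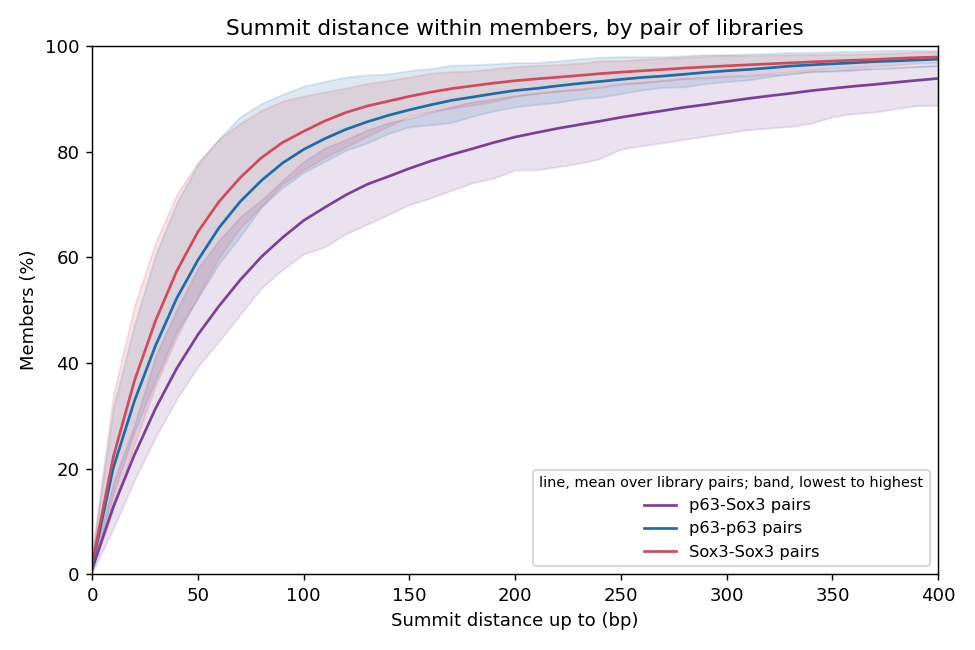
Percentage of members (vertical axis) whose summits in 2 libraries lie within the distance on the horizontal axis, in bp. Lines are means over the 36 p63–Sox3 pairs, the 15 p63–p63 pairs and the 15 Sox3–Sox3 pairs, and bands run from the lowest to the highest pair. Within 50 bp lie 45.4% of members for p63–Sox3 pairs, 59.5% for p63 pairs and 64.8% for Sox3 pairs.

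Taken per member, with the median of its p63 summits set against the median of its Sox3 summits, the offset had a median of 43 bp (quartiles 19 to 105.5). It was at most 25 bp in 667 members (34.2%), at most 50 bp in 1061 (54.4%) and at most 100 bp in 1443 (74.0%), and it exceeded 200 bp in 256 members (13.1%). The summits of one antibody also spread: over its libraries they covered a median range of 103 bp for p63 and 87 bp for Sox3. In 279 members (14.3%) all p63 summits lay on one side of all Sox3 summits, with a median offset of 177 bp. The same separation was found in 16.4% of the 8382 regions that had at least 3 lists of each antibody, and in 337 of 2223 regions of 9 lists (15.2%). Full separation is harder to reach the more lists a region has, and members have more lists than the other regions counted here. These shares thus cannot tell whether members differ from other regions in this. In 626 members all p63 summits fell within 100 bp of each other and all Sox3 summits did too, which fixes both positions well. Of these, 323 (51.6%) had an offset of at most 25 bp, 463 (74.0%) of at most 50 bp, and 117 (18.7%) had the summits of the antibodies fully apart. Members thus included both regions where the antibodies shared a summit and regions where their strongest summits lay apart. This was not particular to members. The offset was at most 50 bp in 55.4% of regions of 9 lists and 57.2% of regions of 8 lists, with medians of 43 and 41.5 bp. The 626 members were picked for summits close together within each antibody, and their shares were not set against such regions outside the members.

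The gap between the antibodies was about as wide in regions outside the rule. It was 24.6 bp in regions of 9 lists, 20.7 bp in regions of 8 lists and 28.7 bp in regions of 6 lists, and 24.4, 24.99 and 22.7 bp in members of 10, 11 and 12 lists. In members of 12 lists both distances were shorter, 51.5 bp between the antibodies and 28.8 bp within an antibody. Merging windows of 50 bp on each side of the summits in place of whole peaks, which limits the distance that can occur, kept 1423 regions and gave 11.6 bp (exact permutation p = 0.00216). In the 1327 members where no list had more than 1 peak the gap was 16.7 bp (exact permutation p = 0.00216), against 24.0 bp over all members. The distances there were 49.4 bp between the antibodies and 32.65 bp within an antibody. The gap was thus smaller where no choice between peaks of a list was needed.

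Loss of p63 was compared at 36 hpf through the distance of each Sox3 summit from the median p63 summit of the member. Its median was 49.5 and 50 bp in tp63-/- mutants, against 54 and 53.5 bp in WT embryos, so the genotypes did not overlap in this setting. The difference was −4.00 bp (49.8 ± 0.354 bp in mutants and 53.8 ± 0.354 bp in WT embryos, SD, n = 2 libraries each, exact two-sided permutation p = 0.3333, the smallest that 2 against 2 libraries allow). The genotypes overlapped in 3 other settings: with the p63 position from the lists of 36 hpf alone (−3.375 bp), with members of 12 lists (−1.625 bp) and at equal list length, where the sign turned (3.25 bp; exact permutation p = 0.667 in each). With at least 11 lists the difference was −1.875 bp (exact permutation p = 0.3333). The p63 positions came from WT embryos in both cases. At the other stages the distance was 45.5 bp (80% of epiboly) and 39.5 bp (24 hpf).

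**Figure D3:**
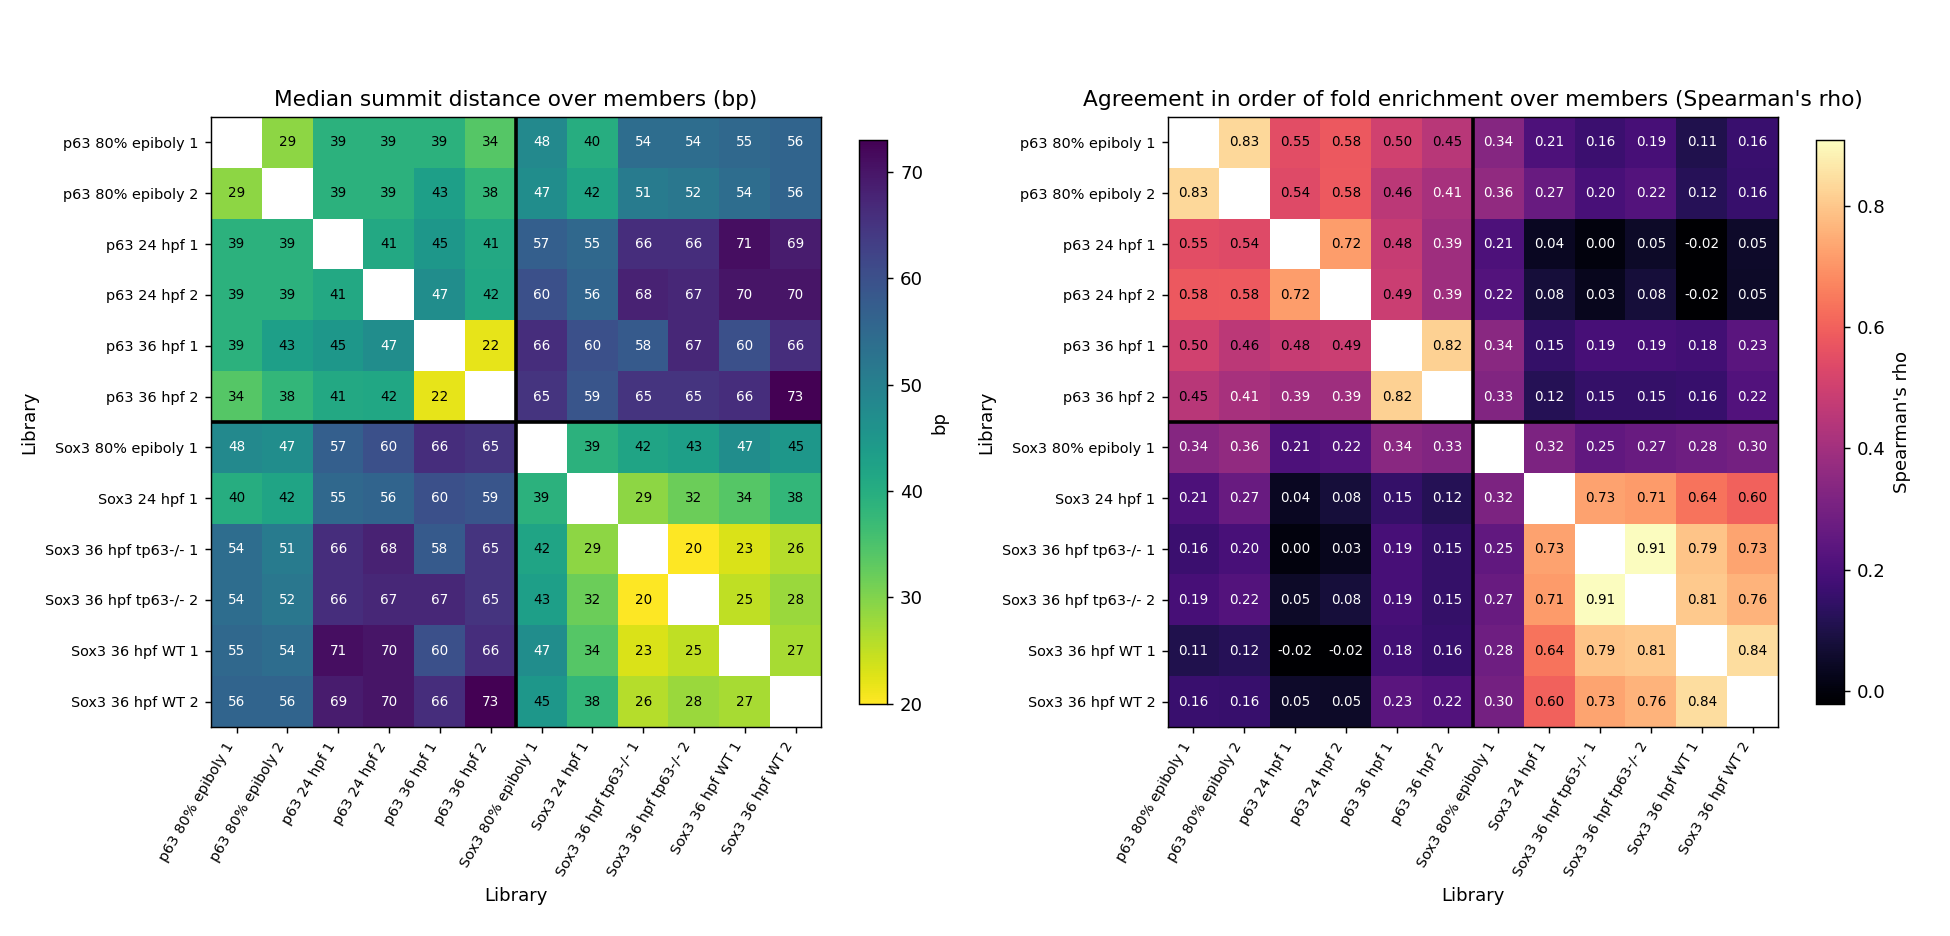
Left, median summit distance in bp over members for each pair of the 12 libraries. Right, Spearman's rho of fold enrichment over members for the same pairs. Black lines part the p63 from the Sox3 libraries. Within an antibody distances run from 20 to 47 bp and rho from 0.25 to 0.91. In p63–Sox3 pairs they run from 40 to 73 bp and from −0.02 to 0.36, so the ranges overlap.

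The order of the members by fold enrichment was shared within an antibody and hardly between them. Over members with a peak in both lists, Spearman's rho had a mean of 0.16 over the 36 p63–Sox3 pairs (lowest −0.02, highest 0.36), against 0.55 over the 15 p63 pairs (0.39 to 0.83) and 0.60 over the 15 Sox3 pairs (0.25 to 0.91). These are correlations across regions, which share the local background and the accessibility of the chromatin in each library and are not independent, and they are given as a description. The members were also chosen by the number of lists of both antibodies together. A region missing from lists of 1 antibody thus had to be present in nearly all lists of the other. How far this choice lowers the rho between the antibodies was not tested. For Sox3 at 80% of epiboly the mean rho with the p63 libraries was 0.30, and the rho with the other Sox3 libraries was 0.25 to 0.32. This is 1 library with the shortest list, and its median summit pileup was 15 tags at members, against 13 in its whole list. Its pairs with p63 of 36 hpf held only 508 and 328 members. Whether its low rho with Sox3 comes from a weak library was not tested. Averaged over the lists with a peak, the percentile of a member with p63 told next to nothing of its percentile with Sox3 (Spearman's rho −0.03, Pearson's r −0.06, n = 1949 members). It was higher with p63 by over 20 points in 307 members (15.8%), higher with Sox3 by over 20 points in 565 (29.0%) and within 20 points in 1077 (55.3%). The averages cover unlike lists, since for example 579 members (29.7%) had no p63 peak at 36 hpf. How far this moved these values was not tested. The mean rho between the antibodies was 0.04 in members of 10 lists, 0.17 in members of 11 lists and 0.52 in members of 12 lists, and 0.01 in regions of 9 lists.

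Members also had a higher local background than most regions, the number of tags expected at the summit from its surroundings in the same library. It was recovered for every peak from the deposited fold enrichment and −log10 p. With no control library in the stated command, tags of the peak itself and of near peaks can count in it. Strong peaks, which the rule favours, can thus raise their own background. How much of the values below comes from this was not tested. The median background at members exceeded the median of the list in each of the 12 libraries, by 1.22-fold (Sox3 at 80% of epiboly) to 2.19-fold (tp63-/- mutant Sox3 replicate 1). Taken over the lists of a region, it was a median of 1.58 times the list medians for members, 1.41 for regions of 9 lists, 1.32 for p63 regions without Sox3, 1.43 for Sox3 regions without p63 and 0.851 for all merged regions. The background was more than 5 times the list medians in 126 members (6.46%), in 79 regions of 9 lists (3.55%), in 1 of 1415 p63 regions without Sox3 (0.0707%), in 395 of 7875 Sox3 regions without p63 (5.02%) and in 1.38% of all merged regions. It was so in 32 of the members of 10 lists (2.71%), 38 of those of 11 lists (6.82%) and 56 of those of 12 lists (26.7%). The highest member lay 38.8 times above the list medians. In Sox3 lists of 36 hpf, 5% of the members had a background above 27.4 and 20.9 tags in mutants and above 23.8 and 16.4 tags in WT embryos, against 8.20, 8.75, 4.22 and 4.49 tags for 5% of all peaks of the same lists.

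**Figure D4:**
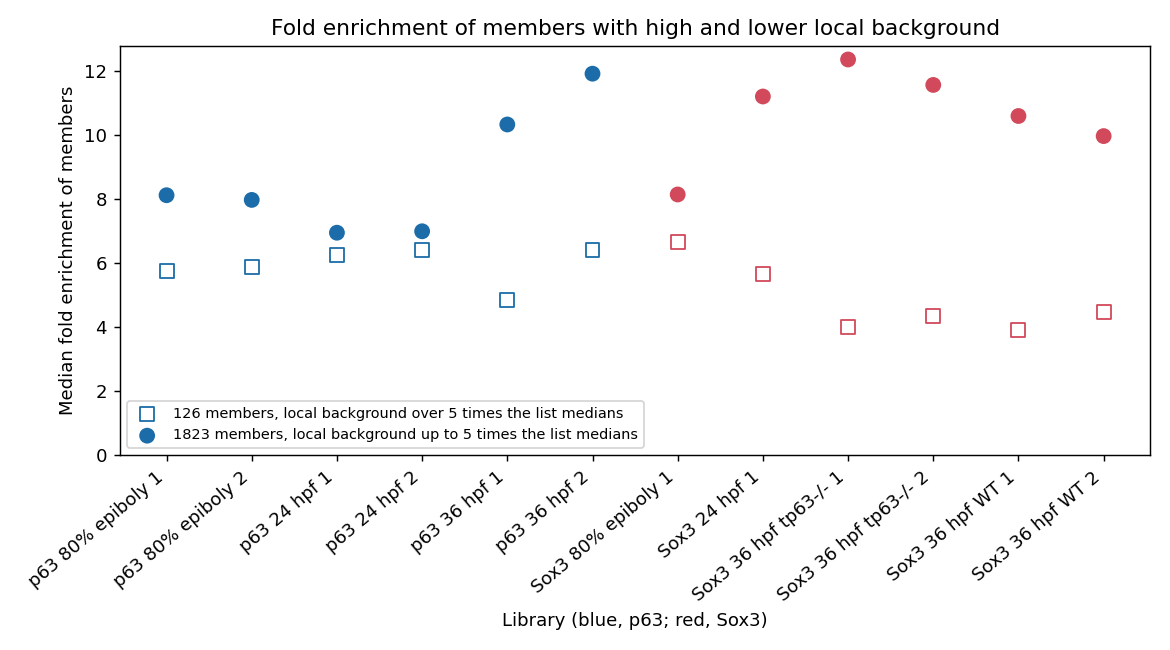
Median fold enrichment (vertical axis) of the 126 members with a local background over 5 times the list medians (open squares) and of the other 1823 members (filled circles) in each of the 12 libraries. The squares lie between 3.90 and 6.67 and below the circles in every library, a direction that the split by background, the denominator of fold enrichment, largely fixes.

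These 126 members differed from the rest in most readouts, which is a description, since they were set apart by a measured value. Their p63 and Sox3 summits had a median offset of 18 bp, against 46 bp for the other 1823 members, and all p63 summits lay beside all Sox3 summits in 3 of them (2.38%), against 276 of the others (15.1%). The order by fold enrichment was shared between the antibodies, with a mean rho of 0.72, against 0.05 for the others. Part of this rho is built in, since the local background is the denominator of fold enrichment in every library. Within an antibody the rho was 0.82 for p63 and 0.79 for Sox3, against 0.51 and 0.54 for the others. Median fold enrichment, which a high background lowers by its definition, was 5.75 and 5.87 for p63 at 80% of epiboly, against 8.13 and 7.98 for the others, and 4.00 and 4.35 for Sox3 in tp63-/- mutants, against 12.4 and 11.6 for the others. Of the 126 members 108 (85.7%) lay within 10 kb of another member, against 205 of the others (11.2%). Part of this can be built in too, since tags of near peaks can count in the background. Without the 126 members the gap between p63–Sox3 and same-antibody summit distances was 26.5 bp (exact permutation p = 0.00216). Among the members of 12 lists, the mean rho between the antibodies was 0.73 for the 56 with high background and 0.32 for the other 154, whose summits had a median offset of 55.5 bp.

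Along the chromosomes the members were partly gathered. Another member lay within 10 kb of 313 members (16.1%, 95% Clopper-Pearson interval 14.5 to 17.8). A region of the same kind lay as near to 9.13% of the 2223 regions of 9 lists, 6.64% of the 1415 p63 regions without Sox3 and 25.1% of the 7875 Sox3 regions without p63, shares that also grow with the number of regions. Another member lay within 50 kb of 732 members (37.6%), and the median distance to the nearest member was 105.4 kb. Without the 126 members of high background, 10.6% had another member within 10 kb. Near peaks can raise the background, so leaving these members out can lower the share by construction. Regions of any kind were only somewhat denser around members, with a mean of 3.72 other merged regions within 10 kb, against 3.28 for regions of 9 lists, 3.07 for p63 regions without Sox3, 3.19 for Sox3 regions without p63 and 2.82 for all merged regions. Joining members less than 10 kb apart gave 119 chains of at least 2 members and 35 chains of at least 3, which held 145 members. On chromosomes 1 to 25 members made up 0.821% (chromosome 12) to 1.63% (chromosome 22) of the merged regions, with 132 on chromosome 7, the highest count, and 44 on chromosome 12, the lowest.

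The longest chain had 12 members in 50.8 kb at chr10:16831095-16881872, among 35 merged regions, and 7 of its members had a peak in all 12 lists. The next had 8 members in 34.5 kb at chr7:52730447-52764971, and 2 chains had 7 members, in 13.01 kb at chr3:55095227-55108240 and in 22.3 kb at chr14:19788717-19811024. Their median local backgrounds were 11.8, 13.3, 10.2 and 14.1 times the list medians, and their median offsets between p63 and Sox3 summits 7.25, 21.8, 13 and 11.5 bp. All 4 chains thus had a background far above that of the typical member (1.58 times) and small median offsets. Members so near each other can raise each other's background, by an amount that was not tested. Single members could differ from the small offsets. In the chromosome 10 chain the offset was 82.5 bp at chr10:16835992-16836762. At chr10:16842253-16843334 it was 9 bp, but the p63 summits spread over 406 bp and the Sox3 summits over 428 bp. What these stretches hold was not analysed here.

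Off chromosomes 1 to 25 lay 57 of the 1949 members (2.92%, 95% Clopper-Pearson interval 2.22 to 3.77), on 44 sequences, with 2 members on the mitochondrial genome. The share was 1.86% (1.80 to 1.93) in all other merged regions, 2.43% (1.83 to 3.16) in regions of 9 lists, 1.06% (0.595 to 1.74) in p63 regions without Sox3 and 1.28% (1.05 to 1.56) in Sox3 regions without p63. Each list had between 1.57% and 2.49% of its peaks there. The interval of the members thus lay above the share of all other merged regions and overlapped that of the regions of 9 lists, and it took in the highest share of a list but not the lowest. Of the members of 12 lists 9 (4.29%, 1.98 to 7.98) lay off these chromosomes, and of the 126 members with high background 8 (6.35%). Intervals cover counting error only, and neighbouring regions are not independent.

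The member of highest mean percentile lay at chr20:4437653-4438061, in the top 1% of each of the 12 lists, the only member of which this was true. Its fold enrichment was 32.6 and 28.3 for p63 at 80% of epiboly, 35.2 and 31.6 at 24 hpf, and 35.3 and 36.6 at 36 hpf. For Sox3 it was 31.9 at 80% of epiboly, 34.6 at 24 hpf, 27.9 and 31.6 in tp63-/- mutants and 32.4 and 35.1 in WT embryos. The libraries were thus nearly level there in fold enrichment, with either antibody and with or without p63 in the embryo. Fold enrichment is not scaled between libraries. The p63 summits lay within 27 bp of each other and the Sox3 summits within 27 bp, and the medians were 29 bp apart. Second came chr17:53292600-53292893, with a fold enrichment of 27.7 to 32.7 for p63 and 30.6 to 36.6 for Sox3 and an offset of 4.50 bp. Both regions were narrow (409 and 294 bp) and had 1 peak per list, and their local backgrounds were 2.74 and 2.31 times the list medians.

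**Figure D5:**
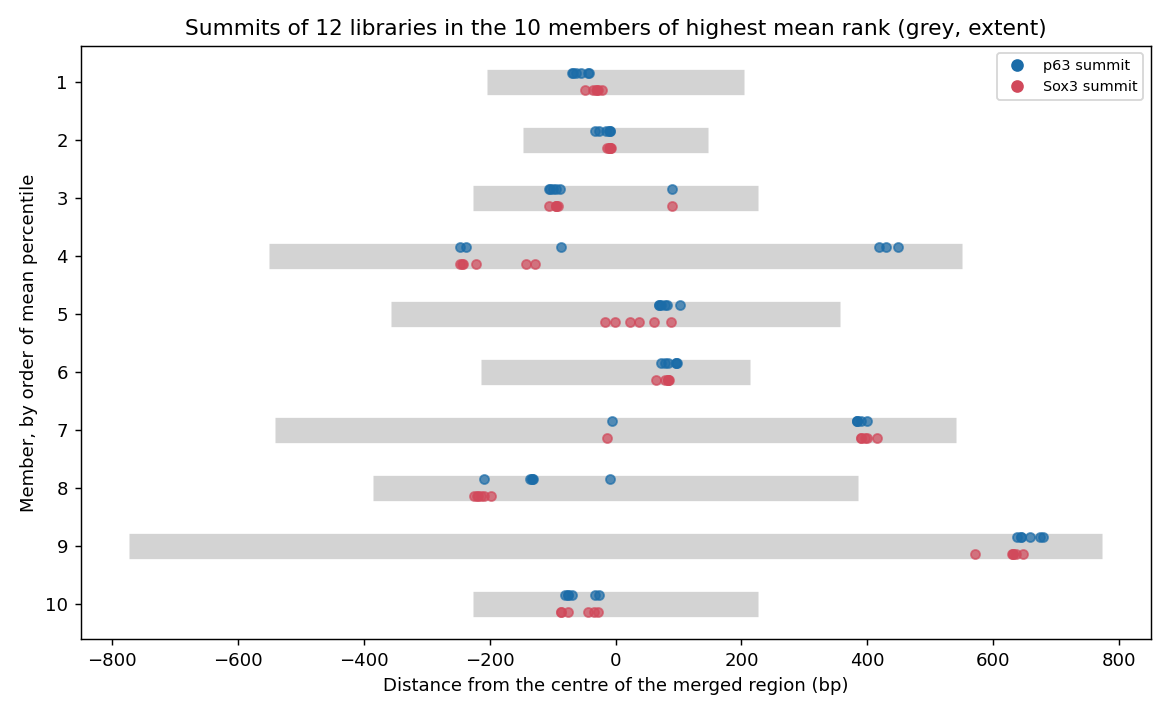
Summits of the p63 libraries (blue) and the Sox3 libraries (red) in the 10 members of highest mean percentile on chromosomes 1 to 25, as distance in bp from the centre of the merged region (grey, its extent). In most of them the median p63 and Sox3 summits lie within 45 bp of each other. In the third and the seventh the summits of both antibodies fall at either of 2 places. In the fourth they divide between positions up to 696 bp apart, and in the eighth the medians of the antibodies lie 82.5 bp apart.

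The third, at chr24:38404513-38404966, had a fold enrichment of 13.95 to 25.1 for p63 and 14.4 to 27.0 for Sox3 and an offset of 3 bp, and its summits fell at either of 2 places up to 195 bp apart with both antibodies. The fourth, at chr22:39221212-39222312, had an offset of 398 bp, with p63 summits spread over 696 bp and Sox3 summits over 120 bp. Its p63 summits of 80% of epiboly and of 24 hpf replicate 2 lay 418.5 to 448.5 bp from the centre of the region. Those of 36 hpf lay at −247.5 and −238.5 bp, among the Sox3 summits (−247.5 to −127.5 bp). The p63 summit of 24 hpf replicate 1 lay at −86.5 bp, outside both ranges. The median p63 position thus fell between these places, and its offset does not describe each p63 library. The fifth to ninth, at chr14:19788717-19789429, chr10:16831095-16831522, chr10:16842253-16843334, chr10:16835992-16836762 and chr17:39990706-39992251, had backgrounds of 10.1 to 16.4 times the list medians. In these 5 the fold enrichment was lowest in Sox3 of 36 hpf, for example 5.504 and 5.865 in tp63-/- mutants and 5.26 and 6.72 in WT embryos at the chromosome 14 region, against 10.2 for Sox3 at 80% of epiboly and 9.98 and 10.2 for p63 at 80% of epiboly. The first 4 of these 5 belong to the chains on chromosomes 14 and 10. The tenth, at chr4:57548166-57548619, had a background of 2.28 times the list medians, and its fold enrichment was uneven between stages. For p63 it was 22.2 and 17.4 at 80% of epiboly, 15.1 and 9.24 at 24 hpf, and 26.7 and 28.0 at 36 hpf. For Sox3 it was 13.9 at 80% of epiboly, 22.7 at 24 hpf, 31.4 and 29.4 in tp63-/- mutants and 29.3 and 27.2 in WT embryos. Fold enrichment of both antibodies was highest at 36 hpf in this region, and mutants and WT embryos were close. It is not scaled between libraries, and the medians of whole p63 lists were highest at 36 hpf too. They were 8.22 and 9.88 at 36 hpf, against 5.89 and 5.63 at 80% of epiboly and 6.54 and 6.21 at 24 hpf. No rise of p63 at this region is read from the values.

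Off chromosomes 1 to 25 the member of highest mean percentile was also the widest of all, with 2188 bp at chrUn_KN150271v1:44-2231 on an unplaced scaffold. Its fold enrichment was 7.82 to 11.96 for p63 and 6.63 to 10.04 for Sox3, its background 14.7 times the list medians, and 23 peaks of the 12 lists were merged in it. The next ones, chrUn_KN150160v1:6019-6590 and chrUn_KN150031v1:11682-11954, had offsets of 1 and 10 bp and backgrounds of 3.15 and 1.48 times the list medians. The largest offset of all members, 1021 bp, was found at chr7:37623353-37624775, a region of 1423 bp with 19 peaks of the 12 lists. The p63 summits spread over 145 bp there and the Sox3 summits over 34 bp. Only the strongest peak of each list was placed, so whether either antibody had peaks at both places was not analysed. The smallest offset, 0 bp, with the highest mean percentile among the members that shared it, was at chr19:3721977-3722285. Its p63 summits lay within 31 bp and its Sox3 summits within 3 bp, and it had no Sox3 peak at 80% of epiboly.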

How the data were processed

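The authors mapped the ChIPmentation reads of p63 and Sox3 with Bowtie (build GRCz10, also named danRer10). MACS2 then called peaks library by library at a false discovery rate limit, with no control library in the stated command. Versions are not given in the sources used here. The deposited lists hold a ratio (fold enrichment of the summit pileup over the local background, each plus 1), the authors' −log10 p and −log10 q, a deposited score that restates −log10 q, and the summit as an offset in bp. None is scaled between libraries, so values were compared by rank within a list or as ratios within a library.

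Groups came from the labels. Peaks sharing 1 bp were merged, and per list the peak of highest −log10 q stood for a region. Pileup and background were solved from the ratio and −log10 p with the Poisson formula of the caller, and 100% of peaks returned −log10 p within 0.001. The largest error was 2.17e-04. Summit distances were compared by exact permutation over libraries, and shares have 95% Clopper-Pearson intervals. Python 3.11.15, pandas 2.3.3, numpy 2.4.6 and scipy 1.17.1 were used, and the functions were tested on simulated data.

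The members, compared regions and lists were chosen with earlier results of these data known. Named regions were the 10 members on chromosomes 1 to 25 and the 3 off them with the highest mean percentile over 12 lists (0 where a list had no peak), the longest chains (4 instead of 3, because of a tie), the widest member and those with the largest and smallest offset. Gene lists and sequences needed an annotation of this build and were not used. Settings without pairs of replicates and without members of high background, and the division by background, were chosen after seeing the data.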

Additional observations from a re-analysis of the deposited data

How the results depend on the processing

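The number of members moved with the setting: 767 with at least 11 lists, 210 with 12, 4172 with at least 9, 1488 with a fold enrichment of at least 5, 559 with a −log10 q of at least 10, 153 at equal list length, 1423 with summit windows, and 1980 to 3728 without 1 library. The gap between p63–Sox3 and same-antibody summit distances kept its direction in all settings run, from 11.6 bp (summit windows) to 40.6 bp, and 20.8 to 26.7 bp without 1 library. In the 1327 members where no list had more than 1 peak the gap was 16.7 bp (exact permutation p = 0.00216). With the 6 libraries of 36 hpf alone it was the 40.6 bp, with an exact permutation p = 0.0667, the smallest that design allows, and with the 10 WT libraries 20.8 bp (exact permutation p = 0.00476). The Sox3 distance from the p63 summit was −4.50 to −3.00 bp (tp63-/- minus WT) without 1 library, −1.625 bp with 12 lists, and turned to 3.25 bp at equal list length. Taken with a replicate block (replicate numbers as pairs, exact sign-flip p = 0.5, the smallest possible) it was −4.00 bp; the block changed no call. The share off chromosomes 1 to 25 was 4.29% with 12 lists, 1.31% at equal list length and 2.58% to 3.02% without 1 library. Members within 10 kb of another made up 24.3% with 12 lists, 13.7% at equal list length and 15.9% to 19.0% without 1 library, 37.6% within 50 kb, and 10.6% without members of high background. The width ratio was 1.25 at equal list length and 1.51 to 1.56 without 1 library. The percentile difference of p63 minus Sox3 was −11.1 to −2.30 without 1 library and 4.56 at equal list length. Its shift from the main value of −4.97 stayed below the spread between libraries (9.92), but the difference itself did not in every setting. The causes were not tested.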

Other observations

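Members were also ordered by their mean percentile over the 12 lists, with 0 where a list had no peak. The 63 members of 90 or more had a median offset between p63 and Sox3 summits of 32 bp, the 131 members from 80 to 90 had 30 bp, the 386 from 70 to 80 had 42.5 bp, the 645 from 60 to 70 had 41 bp, the 498 from 50 to 60 had 48.5 bp and the 226 below 50 had 50 bp. Distances within an antibody shortened as well, from 51.4 bp in the weakest members to 19.2 bp in the strongest. High background was found in 38.1% of the members of 90 or more, in 20.6% of those from 80 to 90 and in 3.54% to 6.22% of the others. A percentile above 90 in all 12 lists was reached by 16 members, 11 of them with high background, and their median offset was 13 bp. By averages over the lists with a peak alone, the offset was 47.5 bp in members that stood over 20 points higher with p63. It was 45.5 bp in those over 20 points higher with Sox3 and 39.5 bp in those within 20 points.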
